A study of Mus musculus with 4 samples.

Results

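The genes examined here are 10 genes of the piRNA pathway, Piwil1, Piwil2, Piwil4, Ddx4, Mael, Mov10l1, Tdrd1, Tdrd6, Tdrd9 and Tdrkh, taken by symbol from a table of 25587 genes, in which all 10 were found. Their RNA was followed through the growth of the mouse oocyte in 4 RNA-Seq libraries, 1 for each stage. NGOs are non-growing oocytes from mice aged 5 days post-partum (dpp), GO1 and GO2 are growing oocytes from mice aged 8–14 dpp and 15 dpp, and FGOs are fully grown oocytes from mice aged 20 dpp. All oocytes were wild-type, from C57BL/6Babr mice, and each library was made from a pool of oocytes, so the spread between animals was not measured. A dUTP protocol was used for NGO and FGO and a ScriptSeq kit for GO1 and GO2, both on RNA depleted of ribosomal RNA. Stage and protocol cannot be told apart between the pairs, so changes were taken within a protocol, from NGO to FGO and between GO1 and GO2. With 1 library per stage there was no replicate check and no test between stages, and intervals given below cover counting error only.

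PIWI-interacting RNAs (piRNAs) are small RNAs of germ cells that guide PIWI proteins to transposon transcripts. Precursor transcripts are bound by a helicase, cut and trimmed at the surface of mitochondria, and loaded onto PIWI proteins, and Tudor domain proteins hold the machinery together by binding methylated arginines of the PIWI proteins. In the mouse, loss of this pathway blocks spermatogenesis, whereas females that lack single components are largely fertile, and mouse oocytes also silence transposons through endogenous siRNAs made by an oocyte form of Dicer.

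The sequences before the transcription start of 4 members are shown because they differ in how their RNA changed: Piwil1 rose from NGO to FGO, Mael and Tdrd9 fell, and Tdrd1 had the highest level in every library. They are the 250 bases before the RefSeq start (GRCm38.p6), read 5′ to 3′ on the strand of the gene, at chr5:128735996-128736245 (plus strand), chr1:166238745-166238994 (minus strand), chr19:56825959-56826208 (plus strand) and chr12:111971309-111971558 (plus strand). Capitals mark matches on either strand to 5 short motifs, which are the palindromic E-box CACGTG, the MYB core CAGTTG, an E2F-type site GGCGGGAA, the TATA box TATAAA and an NRF1 site GCGCATGC.
Piwil1: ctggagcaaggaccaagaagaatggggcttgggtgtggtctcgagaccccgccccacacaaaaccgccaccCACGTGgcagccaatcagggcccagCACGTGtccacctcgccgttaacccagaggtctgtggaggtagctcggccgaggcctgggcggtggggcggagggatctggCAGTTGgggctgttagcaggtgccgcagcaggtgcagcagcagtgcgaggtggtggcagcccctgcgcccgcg
Mael: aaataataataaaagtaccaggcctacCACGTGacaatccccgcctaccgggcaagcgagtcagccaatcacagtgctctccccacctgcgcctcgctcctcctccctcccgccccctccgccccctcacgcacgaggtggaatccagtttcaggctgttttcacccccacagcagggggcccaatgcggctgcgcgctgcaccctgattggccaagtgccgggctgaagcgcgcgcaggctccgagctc
Tdrd1: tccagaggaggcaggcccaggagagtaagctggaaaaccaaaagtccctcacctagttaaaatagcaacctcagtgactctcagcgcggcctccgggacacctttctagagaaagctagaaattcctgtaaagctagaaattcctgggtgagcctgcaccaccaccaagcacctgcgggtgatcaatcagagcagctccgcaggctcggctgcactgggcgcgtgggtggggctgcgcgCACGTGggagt
Tdrd9: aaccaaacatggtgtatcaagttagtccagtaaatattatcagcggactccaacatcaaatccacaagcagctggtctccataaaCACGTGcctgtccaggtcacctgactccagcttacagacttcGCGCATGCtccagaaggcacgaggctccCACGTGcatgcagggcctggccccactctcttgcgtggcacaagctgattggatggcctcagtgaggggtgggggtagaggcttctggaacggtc

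RefSeq windows from 250 bases before to 50 bases after the start were found for 8 of the 10 members, and Piwil2 and Tdrd6 had no entry. The palindromic E-box CACGTG lay in 6 of these 8 windows, those of Piwil1, Ddx4, Mael, Mov10l1, Tdrd1 and Tdrd9, against 7.15 % of all 32851 windows of this length. Among the 14281 windows with at least 10 CpGs, the lowest number in a member's window, 10.9 % held it. Piwil1 and Tdrd9 each held it at 2 positions, which started 179 and 154 bases before the start in Piwil1 and 165 and 95 bases before it in Tdrd9. In Tdrd1 it started 11 bases before the start, in Ddx4 29 bases and in Mael 223 bases before it. The windows of Piwil4 and Tdrkh held no CACGTG. Members that rose, that fell and that stayed within 2-fold from NGO to FGO were each among those with the motif.

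The other motifs were found in few members. The NRF1 site was in 2 of 8 windows (Mov10l1 and Tdrd9) against 2.71 % of all windows, the E2F-type site in 1 (Ddx4) against 2.19 %, the MYB core in 1 (Piwil1) against 13.7 % and the TATA box in 1 (Piwil4) against 13.6 %. Among the windows with at least 10 CpGs these shares were 5.68 %, 4.43 %, 9.17 % and 5.63 %. The general E-box CANNTG, of which CACGTG and CAGTTG are forms, was in 8 of 8 windows against 72.3 % of all and 61.6 % of those with at least 10 CpGs. Members had a median of 20 CpGs per window, from 10 in Tdrd9 to 38 in Ddx4, against a median of 7 over all windows. A match is a description of these letters only, and no binding was measured.

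The libraries carried the markers of oocytes. All 12 oocyte markers listed, among them Zp3 and Gdf9, had an RPKM (reads per kilobase of exon, relative to the library's total) of at least 20.6 in each library. Of 7 germ cell markers, 5 were above 1 in each library. Nanos3 was at 0 in NGO, GO1 and GO2 and at 0.0115 in FGO, and Dnd1 was at most 0.382. The 8 markers of ovarian stroma summed to 5.70 in NGO and to 0.422, 0.374 and 0.324 in GO1, GO2 and FGO. Most of the sum in NGO was Col1a1 (2.24), Col3a1 (1.73) and Col1a2 (0.896), and Lum (0.0654) was above 0 in NGO only. All 8 were lower in FGO than in NGO, while Nr2f2 was higher in GO1 (0.245) than in NGO (0.141). The part of stroma in the higher levels of the members in NGO was not tested, and fewer cells of a type and less RNA per cell cannot be told apart. The counts behind these values summed to 64141450 in NGO, 75934218 in GO1, 141327053 in GO2 and 73461088 in FGO.

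Levels are given as RPKM, which allows comparison between genes because it is per length. Tdrd1 was the member with the highest level in all 4 libraries, followed by Ddx4, and Piwil4 was the lowest in all 4. At an RPKM of at least 1 there were 7 members in NGO, 7 in GO1, 8 in GO2 and 8 in FGO, the added member being Piwil1. With uniquely mapped reads as the library size and the counts unchanged, 9 members reached 1 in each library. These counts may hold fragments more than once, so such levels may be too high. The share of all genes at this level was not counted, and the 1.47 of Mov10l1 in FGO stood at percentile 64.8 of all listed genes. The summed RPKM of the 10 members was 302 in NGO, 212 in GO1, 174 in GO2 and 141 in FGO. The median member stood at percentile 93.4 of all listed genes in NGO, 83.7 in GO1, 81.7 in GO2 and 75.7 in FGO. Among genes with at least 3 recovered counts these percentiles were 89.7, 75.3, 74.1 and 62.8. The sum and the median rank were thus highest in NGO, with GO1 and GO2 being of the other protocol. This did not hold for each member, since Piwil1, Ddx4, Tdrd6 and Tdrkh had a higher RPKM in another library than in NGO. Of the sum, Tdrd1 made up 33.0 % and Ddx4 22.3 % in NGO, and 49.97 % and 20.1 % in FGO. The 12 oocyte markers also had their highest sum in NGO, at 8294 beside 6283 in GO1, 5833 in GO2 and 5597 in FGO. Of these markers 10 were lower in FGO than in NGO and 2 higher, while their median percentile was 99.86 or 99.87 in each library.

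**Figure D1:**
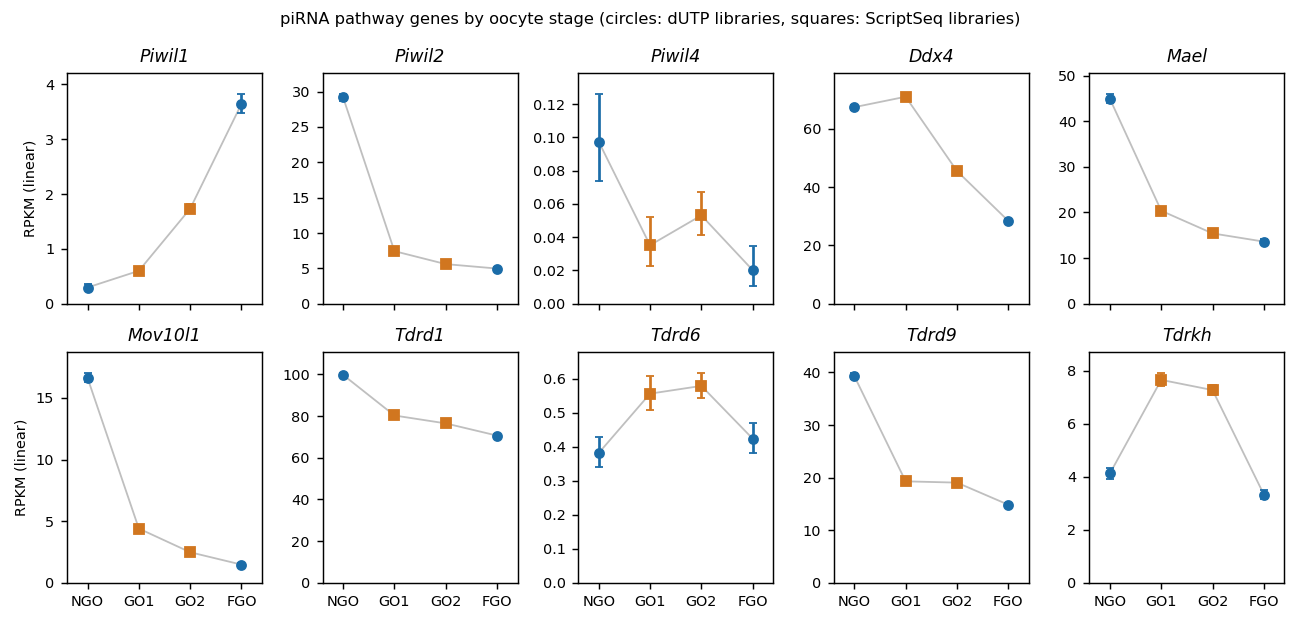
RPKM (linear axis from 0, with a scale of its own for each gene) of the 10 members in the NGO, GO1, GO2 and FGO libraries, with bars for the 95 % Poisson interval. Circles are dUTP and squares ScriptSeq libraries, and grey lines join stages in order of age. Piwil1 climbs from 0.296 to 3.64, Piwil2, Mael and Mov10l1 drop steeply after NGO, and Tdrkh and Tdrd6 are higher in GO1 and GO2 than in NGO and FGO.

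From NGO to FGO, 6 of the 10 members fell at least 2-fold (Piwil2, Piwil4, Ddx4, Mael, Mov10l1 and Tdrd9), where 16.6 % of the 15252 genes that reached 20 counts in this pair did. Piwil1 was the 1 member that rose at least 2-fold, as 17.9 % of all genes did. At 4-fold, 3 members fell (Piwil2, Piwil4 and Mov10l1; background 5.45 %) and Piwil1 rose (background 8.61 %). All 10 members passed the filter. The median log2 change of the members was -1.26, beside 0.001 for all genes. At both thresholds a larger share of the members than of all genes fell, while 1 of 10 members rose, below the background at 2-fold and near it at 4-fold.

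From GO1 to GO2 the members moved less. None fell at least 2-fold (background 2.74 % of 15734 genes) and Piwil1 alone rose at least 2-fold (background 6.96 %). At 4-fold, 0 members fell (background 0.248 %) and 0 rose (background 1.51 %). The median log2 change of the members was -0.10, beside 0.03 for all genes. Of the 10 members, 7 were below 0 and 3 above, beside 7491 below and 8243 above among all 15734 genes.

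**Figure D2:**
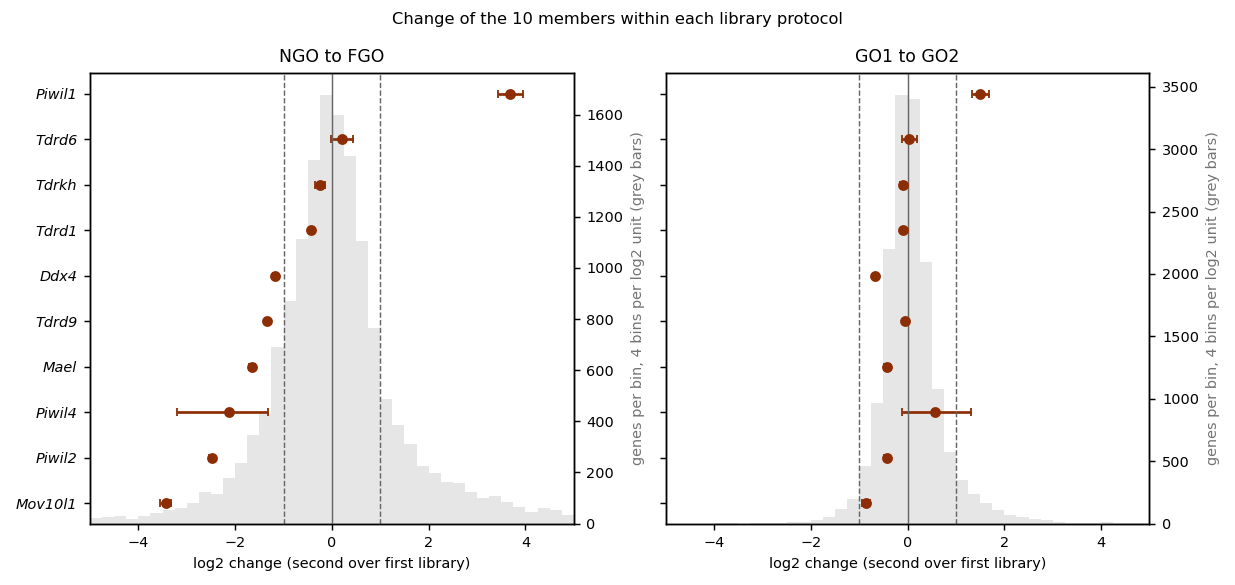
log2 change of each member (points, with 95 % counting intervals) from NGO to FGO and from GO1 to GO2, over a histogram of all genes tested (grey, right axis). Dashed lines mark 2-fold. On the left, 6 members lie below -1 and Piwil1 at 3.68, and on the right, Piwil1 at 1.50 is the only member outside the dashed lines.

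The PIWI proteins carry the piRNA. PIWIL2 (MILI) is loaded with primary piRNAs in the cytoplasm, PIWIL1 (MIWI) is best known from spermatids and late spermatocytes, and PIWIL4 (MIWI2) acts in the nucleus of fetal male germ cells, where it directs DNA methylation to transposons. Piwil2 had an RPKM of 29.2 in NGO, 7.43 in GO1, 5.60 in GO2 and 4.97 in FGO. Its level was lower at each later stage, and none of the 4 intervals overlapped. The log2 change was -2.49 from NGO to FGO (95 % interval -2.55 to -2.43), 5.61-fold lower, and -0.43 from GO1 to GO2.

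Piwil1 went the other way. Its RPKM was 0.296 in NGO, 0.600 in GO1, 1.73 in GO2 and 3.64 in FGO, on 129, 300, 1649 and 1719 counts. The 4 intervals did not overlap, and the order followed the age of the mice. The log2 change was 3.68 from NGO to FGO (95 % interval 3.43 to 3.96), 12.8-fold higher, and 1.50 from GO1 to GO2 (1.33 to 1.69). Piwil1 was in place 9 of the 10 members in NGO and in place 6 in FGO.

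Piwil4 was near the limit of detection, with RPKM of 0.0974 in NGO, 0.0351 in GO1, 0.0531 in GO2 and 0.0202 in FGO, on 58, 24, 69 and 13 counts. NGO was above the other libraries, and the intervals of GO1 overlapped those of GO2 and FGO. The log2 change from NGO to FGO was -2.12 (95 % interval -3.20 to -1.32), and it was -0.65 on the scale of log2(RPKM + 0.1), which ends the 2-fold call. From GO1 to GO2 the value was 0.56 with an interval (-0.12 to 1.31) that included 0. Its exons overlap those of an antisense gene, Gm10706, and without a known strand setting of the counting, reads of both cannot be told apart.

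With opposite changes of its main genes, the makeup of the PIWI RNA differed between stages. Piwil1 made up 1.0 % of the summed RPKM of the 3 PIWI genes in NGO, 7.44 % in GO1, 23.5 % in GO2 and 42.2 % in FGO, and Piwil2 made up nearly all of the rest. The ratio of Piwil2 to Piwil1 went from 98.6 in NGO through 12.4 and 3.23 to 1.37 in FGO. The sum of the 3 was 29.6 in NGO and 8.07, 7.39 and 8.64 in GO1, GO2 and FGO. After NGO the sum stayed within a narrow range while the share of Piwil1 grew.

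Some markers of other cells also rose from stage to stage, and others did not. The 10 granulosa cell markers listed (granulosa cells surround the oocyte in the follicle) had a summed RPKM of 6.37 in NGO, 12.1 in GO1, 16.5 in GO2 and 19.6 in FGO, and 10, 9, 10 and 10 of them had at least 3 counts. Most of this sum was Nr5a2 (3.62 to 11.4) and Cyp19a1, the aromatase of oestrogen synthesis, which was at 0.518, 1.08, 3.13 and 6.08. None was listed at 0. Of the 10, 3 were higher at each later stage, as Piwil1 was, namely Cyp19a1, the receptor gene Fshr (0.135, 0.167, 0.171 and 0.302) and Kitl (0.514, 0.804, 1.32 and 1.63). In all, 7 were higher in FGO than in NGO and 3 lower. Among the defining markers Amh had 0.250 in NGO, 0.0284 in GO1, 0.0199 in GO2 and 0.412 in FGO, and Foxl2 had 0.0754, 0.00313, 0.0115 and 0.0265. The 7 blood and endothelial markers found summed to 3.62, 5.73, 8.95 and 10.1, with Pecam1 at 1.74, 5.15, 8.28 and 9.70. Kdr was also higher in FGO (0.108) than in NGO (0.0286), and the other 5 were lower, with Cdh5, Hbb-b1 and Hba-a1 at 0 in FGO. The part of other cells in the rise of Piwil1 was not tested.

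**Figure D3:**
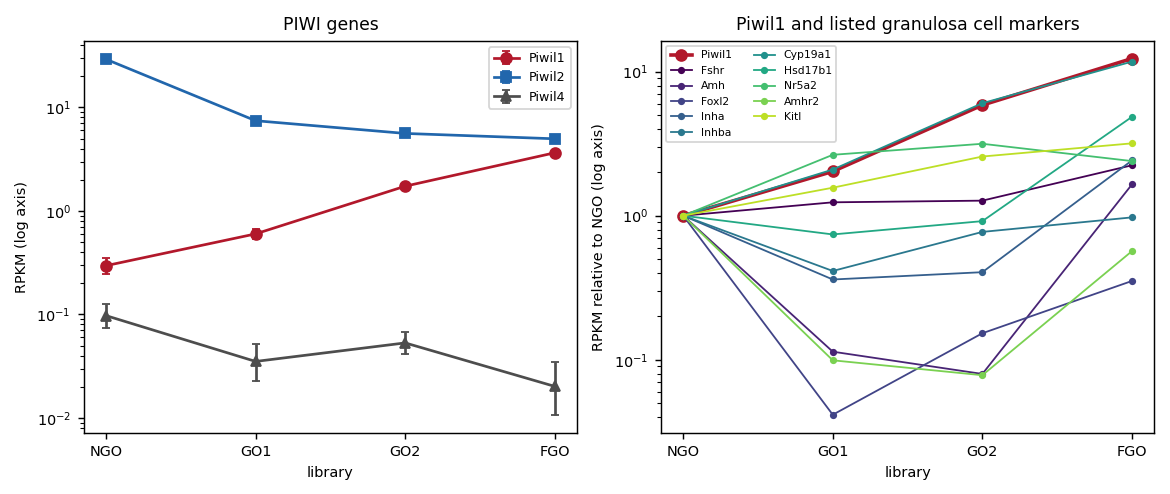
Left, RPKM (log axis) of the 3 PIWI genes in each library with 95 % counting intervals. Right, RPKM relative to NGO (log axis) of Piwil1 and the 10 listed granulosa cell markers. Piwil2 stays above Piwil1 in every library while the distance shrinks, and on the right the line of Cyp19a1 runs along that of Piwil1, Fshr and Kitl also climb at each stage by less, and Foxl2, Amh and Amhr2 dip in GO1 and GO2.

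The helicases and their partners act on piRNA precursors and in the granules of germ cells. MOV10L1 is the RNA helicase that binds precursor transcripts and starts primary piRNA production. Mov10l1 had an RPKM of 16.6 in NGO, 4.40 in GO1, 2.48 in GO2 and 1.47 in FGO, lower at each stage with no overlap of intervals. From NGO to FGO its log2 change of -3.43 (95 % interval -3.54 to -3.32), 10.8-fold lower, was the largest fall among the members. Only 1.54 % of all genes tested had a lower value. From GO1 to GO2 its value of -0.85 was also the lowest of the members, within 2-fold.

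DDX4 (the mouse VASA homologue) is a DEAD-box helicase of the germ cell granules and a standard germ cell marker. The RPKM of Ddx4 was 67.4 in NGO, 70.9 in GO1, 45.5 in GO2 and 28.4 in FGO. Unlike the other members that fell at least 2-fold, it was not lower in GO1 than in NGO. Its log2 change was -1.18 from NGO to FGO (95 % interval -1.22 to -1.15) and -0.67 from GO1 to GO2 (-0.69 to -0.64).

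MAEL (Maelstrom) is a protein of the germ cell granules that is needed for transposon silencing in the male germline. Mael had an RPKM of 44.9 in NGO, 20.4 in GO1, 15.4 in GO2 and 13.6 in FGO. NGO stood above the other stages, and no intervals overlapped. The log2 change was -1.66 from NGO to FGO (95 % interval -1.72 to -1.59) and -0.43 from GO1 to GO2.

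Of the Tudor domain proteins, TDRD1 binds PIWIL2 and TDRD9, a helicase with a Tudor domain, works with PIWIL4. Tdrd1 stayed within 2-fold, with RPKM of 99.8 in NGO, 80.3 in GO1, 76.5 in GO2 and 70.6 in FGO. Its log2 change was -0.43 from NGO to FGO (95 % interval -0.45 to -0.42) and -0.09 from GO1 to GO2. Tdrd1 made up 33.0 % of the summed RPKM of the members in NGO and 49.97 % in FGO. Tdrd9 had an RPKM of 39.3 in NGO, 19.3 in GO1, 19.0 in GO2 and 14.8 in FGO. It was highest in NGO, while GO1 and GO2 had overlapping intervals. Its log2 change was -1.34 from NGO to FGO (95 % interval -1.38 to -1.30) and -0.04 from GO1 to GO2.

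TDRKH is a Tudor domain protein anchored at mitochondria, where piRNA precursors are trimmed, and TDRD6 is a component of the chromatoid body of spermatids. Tdrkh had an RPKM of 4.12 in NGO, 7.65 in GO1, 7.27 in GO2 and 3.33 in FGO. Tdrd6 was at 0.382, 0.556, 0.579 and 0.424, on 298 to 987 counts. Both were higher in the 2 ScriptSeq libraries than in the 2 dUTP libraries, with no overlap of intervals, except that Tdrd6 overlapped between GO1 and FGO when fewer independent reads were assumed, and growth stage and protocol cannot be told apart in this pattern. Within each protocol they changed little. The log2 change from NGO to FGO was -0.24 for Tdrkh (95 % interval -0.34 to -0.14) and 0.22 for Tdrd6 (-0.01 to 0.44, including 0), and from GO1 to GO2 it was -0.10 and 0.03. Exons of Tdrkh overlap those of Oaz3 on the opposite strand, whose reads may have been counted with it.

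Between the protocols only values can be given. From NGO to GO1 the log2 change was -1.83 for Piwil2, -1.78 for Mov10l1, -0.997 for Mael, -0.89 for Tdrd9, -0.17 for Tdrd1 and 0.22 for Ddx4. From GO2 to FGO these genes had -0.30, -0.88, -0.31, -0.49, -0.25 and -0.81. In these values Piwil2, Mov10l1, Mael and Tdrd9 differed more between NGO and GO1 than in either later step, while Ddx4 was not lower in GO1. Since both of these steps cross protocols, the stage at which a gene changed cannot be told from them. Piwil1 had 1.16 from NGO to GO1 and 0.94 from GO2 to FGO, Piwil4 -1.29 and -1.47, and Tdrd6 0.69 and -0.58. Tdrkh had 1.04 and -1.26, past 2-fold in opposite directions. Without scaling, Tdrkh was at 0.89 from NGO to GO1, under 2-fold, and Mael (-1.14), Tdrd9 (-1.03) and, from GO2 to FGO, Piwil1 (1.07) were past it. Ratios of RPKM without the scaling were shifted against these log2 values by -0.14 from NGO to GO1 and by 0.13 from GO2 to FGO.

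The order of levels differed little between stages at its ends and more in its middle. In NGO the order was Tdrd1, Ddx4, Mael, Tdrd9, Piwil2, Mov10l1, Tdrkh, Tdrd6, Piwil1 and Piwil4, and only Tdrd6 and Piwil1 had overlapping intervals. In FGO it was Tdrd1, Ddx4, Tdrd9, Mael, Piwil2, Piwil1, Tdrkh, Mov10l1, Tdrd6 and Piwil4, and only Piwil1 and Tdrkh overlapped. In GO1 the neighbours Tdrkh and Piwil2, and Piwil1 and Tdrd6, overlapped, and in GO2 no neighbours did. Mov10l1 thus went from above Tdrkh and Piwil1 to below both.

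Other genes of the pathway were taken from a list of 27, of which 25 were in the table (Henmt1 and Btbd18 under older names) and Tdrd15 and Gtsf2 were not matched. From NGO to FGO, 7 of the 25 fell at least 2-fold and 3 rose, with a median log2 change of -0.27, beside the backgrounds of 16.6 % and 17.9 % above. From GO1 to GO2, 0 of the 25 fell (background 2.74 %) and 1 rose (background 6.96 %). An RPKM of at least 1 was reached by 21 of the 25 in NGO and GO1 and by 22 in GO2 and FGO. The share of all genes at this level was not counted. All 25 had at least 3 recovered counts in each library, where 16551 to 18083 of the 25587 listed genes did. These numbers of genes may be too low, since some recovered counts may be a fraction of the true ones.

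The largest fall in this list was that of Fkbp6, a co-chaperone needed to load PIWI proteins, with RPKM of 46.9 in NGO, 7.32 in GO1, 5.85 in GO2 and 6.32 in FGO and a log2 change of -2.83 from NGO to FGO (95 % interval -2.96 to -2.70). Adad2, a germ cell protein with an adenosine deaminase domain, went from 37.2 to 7.73 (log2 change -2.20). Prmt5, the methyltransferase that marks the arginines of PIWI proteins read by Tudor domains, went from 7.56 to 1.86 (-1.96), and its cofactor Wdr77 from 0.690 to 0.204 (-1.69). Tex15, needed for transposon silencing in the male germline, went from 32.0 through 20.8 and 15.8 to 11.1 (-1.46). The other genes that fell, named after their values were seen, were Gpat2 (-1.38) and Btbd18 (-1.04). Btbd18 had 17 and 8 recovered counts, which may be a fraction of the true ones, and the interval from these counts included 0.

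The rises were those of Spocd1, Tdrd12 and Henmt1. Spocd1, a partner of PIWIL4 in the DNA methylation of transposons, had RPKM of 0.690 in NGO, 0.859 in GO1, 2.03 in GO2 and 3.70 in FGO, with log2 changes of 2.48 from NGO to FGO (95 % interval 2.24 to 2.74) and 1.22 from GO1 to GO2 (1.01 to 1.44). Like Piwil1, it was past 2-fold in both pairs. Tdrd12, a Tudor domain protein with a helicase domain, had 36.3, 31.7, 42.6 and 75.3, with log2 changes of 1.12 and 0.40. Henmt1, the methyltransferase that adds a methyl group to the 3′ end of piRNAs, had 15.4, 25.2, 37.6 and 30.1, with log2 changes of 1.03 and 0.55. Without scaling between libraries its change from NGO to FGO was 0.97, under 2-fold. Of the granulosa cell markers given above, 7 were higher in FGO than in NGO and 3 lower. Among the blood and endothelial markers 2 were higher, with Pecam1 making up most of their sum, and 5 were lower. The part of such cells in these rises was not tested.

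The 3 genes of the list with the highest level in any library were Tdrd12 (75.3 in FGO), Gtsf1 and Tdrd5. Gtsf1, a zinc finger cofactor of PIWI proteins, had RPKM of 69.5, 73.9, 60.0 and 67.8 and a log2 change from NGO to FGO of 0.03, with an interval (-0.01 to 0.07) that included 0. Tdrd5 had 56.3, 65.9, 50.3 and 44.3 and a log2 change of -0.28. In FGO the RPKM of Tdrd12, Gtsf1 and Tdrd1 lay between 67.8 and 75.3, with that of Piwil2 at 4.97.

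**Figure D4:**
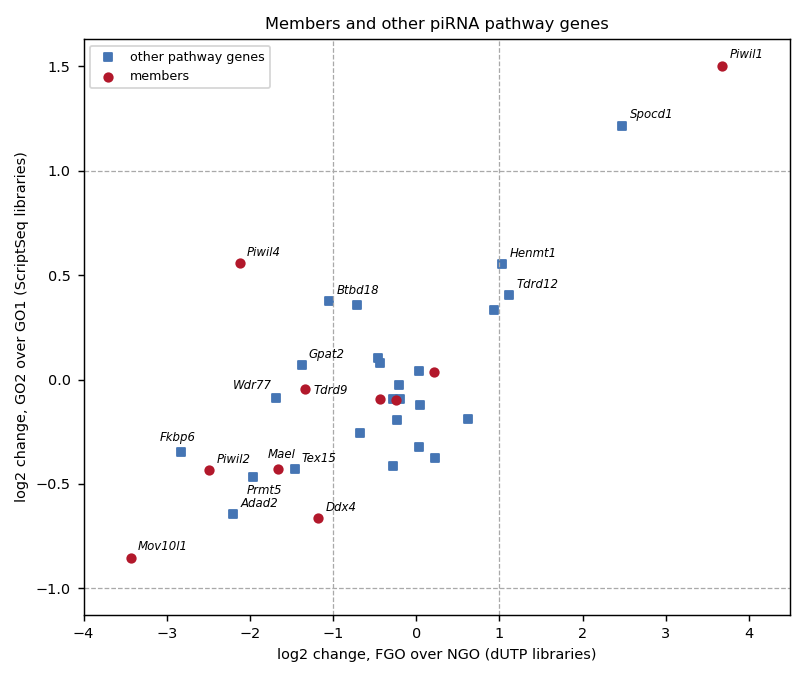
log2 change from NGO to FGO (dUTP libraries, horizontal) against that from GO1 to GO2 (ScriptSeq libraries, vertical) for the 10 members (red circles) and 25 other piRNA pathway genes (blue squares), with dashed lines at 2-fold and names for genes past 2-fold in either pair. Piwil1 and Spocd1 lie past 2-fold upward on both axes, and no gene lies below -1 on the vertical axis.

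For each member with at least 100 counts in its highest library (9 of 10, all but Piwil4), the genes with the most similar profile over the 4 libraries were found among 13106 genes, by the root mean square distance of centred log2 values. With 4 points the distances are a description only. Piwil1 was nearest to Cyp19a1 (distance 0.0469), the granulosa cell marker above, and to Mrc1 (0.0621), a macrophage receptor, whose RPKM was 0.236, 0.439, 1.40 and 2.70. Piwil2 was nearest to Dmrtc1c1 (0.0727) and Lgals1 (0.0819), Mov10l1 to Sh3gl3 (0.0782) and Rnd2 (0.0825), and Mael to Arrdc3 (0.0251) and Pepd (0.0494). Ddx4 was nearest to 4932438A13Rik (0.0111) and the RNA helicase gene Dhx9 (0.0293). Tdrd1 was nearest to Ino80c (0.0209), and Tdrd9 to Sgpl1 (0.0228) and Wdr7 (0.0281). The closest neighbours were those of Tdrd6, Poli (0.005) and 1200011I18Rik (0.0086), which were also higher in GO1 and GO2 than in NGO and FGO. Tdrkh was nearest to Hmgb3 (0.0391) and Slu7 (0.0473), with the same order of libraries by protocol.

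The members lie on 10 chromosomes. By the deposited gene coordinates (GRCm38), Piwil1 is at chr5:128736246-128755474, Piwil2 at chr14:70372480-70429094, Piwil4 at chr9:14696230-14740733, Ddx4 at chr13:112598333-112652310, Mael at chr1:166201385-166238744 and Mov10l1 at chr15:88982909-89055152. Tdrd1 is at chr19:56826209-56870012, Tdrd6 at chr17:43615335-43630299, Tdrd9 at chr12:111971559-112068854 and Tdrkh at chr3:94413296-94432633. All 10 are protein-coding in GENCODE M21.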

How the data were processed

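The 4 libraries, 1 per oocyte stage, gave paired-end reads of 100 bp. Per the labels, reads were trimmed with Trim Galore 0.2.8 and mapped to GRCm38 with TopHat2 2.0.9. The authors deposited 1 RPKM value per gene and library on a linear scale. The program, gene annotation and strand setting behind these values are not given in the sources used here.

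Counts were recovered from the RPKM. A total for each library made the values of single-exon genes whole multiples of 1 read in 99.65–99.75 % of cases (with the refined totals, tolerance 0.005 reads plus 1.5e-07 of the value). Lengths were those of GENCODE M21 exons, or else the smallest length that gave whole counts in all libraries, used for 10041 genes. Counts from a smallest length may be a fraction of the true ones, as for genes above 0 in 1 library only. Among the members it was used for Piwil1, Piwil2, Ddx4 and Tdrkh, at 3944, 4913, 2849 and 3806 bases. Their GENCODE exon unions are 4358, 5287, 3014 and 6142 bases, each shorter than 2 such lengths. Recovered totals were 2.94 to 3.55 times the uniquely mapped reads, so fragments may be counted more than once and intervals may be too narrow. Changes are log2 ratios of counts with a prior count of 1, library sizes being scaled by trimmed mean (30 % of log ratios, 5 % of levels), for genes that reached 20 counts in the pair, called at 2-fold. Intervals are exact 95 % Poisson intervals for levels and exact binomial ones for changes. The calculation was tested on simulated data (Python 3.11.15, scipy 1.17.1). The check of recovered lengths left out genes with few counts.

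Members, gene lists and motifs were chosen with earlier results of these data known. Named were all members, the 5 largest rises and falls past 2-fold and the 3 highest of the other pathway genes, and the 2 nearest profiles of each member, of which 1 is not reported here. Alternatives were other scalings, prior counts, filters, thresholds and units. Protein sequences and transposon reads were not analysed here.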

Additional observations from a re-analysis of the deposited data

How the results depend on the processing

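From NGO to FGO and from GO1 to GO2 the members' changes kept their sign and their side of 2-fold under the other scalings, prior count and unit, except the fall of Piwil4 from NGO to FGO, which was -0.65 on the scale of log2(RPKM + 0.1). Without scaling, the calls of Mael (-1.14), Tdrd9 (-1.03) and Tdrkh (0.89) from NGO to GO1 and of Piwil1 (1.07) from GO2 to FGO changed their side of 2-fold. The other pathway genes that fell from NGO to FGO were 6 or 7 under the other settings at 2-fold, and those that rose 2 (without scaling, Henmt1 at 0.97) or 3. At an RPKM threshold of 0.5 the members above it were 7, 9, 9 and 8 in NGO, GO1, GO2 and FGO, and 7 in each at a threshold of 2. With at least 100 counts required in a pair, Piwil4 was not tested, which left 5 members that fell from NGO to FGO. At a threshold of 4-fold, 3 members and 2 other pathway genes fell and 1 other pathway gene rose from NGO to FGO, and 0 members and 0 other pathway genes rose from GO1 to GO2. The median percentile of the members among genes with at least 3 counts was 89.7 in NGO, 75.3 in GO1, 74.1 in GO2 and 62.8 in FGO, lower because genes under 3 counts leave the ranking. Their median RPKM in GO1 was 7.54, and 8.33 when scaled to NGO. With counts divided by the ratio of total to uniquely mapped reads, an alternative added after seeing the data, the intervals of 9 members excluded 0 from NGO to FGO as before, and from GO1 to GO2 those of 6 in place of 8. Then Mael and Tdrd9 also had overlapping intervals of level in GO1 and in FGO, Tdrd6 overlapped between GO1 and FGO, Piwil4 between NGO and GO1 or GO2 and between GO2 and FGO, and the interval of the change of Piwil4 from NGO to FGO was -4.15 to -0.47. Depth limits Piwil4 most, with 13 counts in FGO. No paired analysis was possible because each stage has 1 library. The planned description of the proteins was not run, since no protein sequences were at hand.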

Other observations

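Genes of meiotic prophase that were listed as germ cell markers were also lower at later stages. Sycp3, a component of the lateral elements of the synaptonemal complex, had RPKM of 66.3 in NGO, 36.7 in GO1, 22.9 in GO2 and 9.48 in FGO. Sycp1, of its transverse filaments, had 18.3, 15.9, 7.46 and 2.79. Dazl, an RNA-binding protein of germ cells, had 126.1, 132.5, 115.7 and 120.2, with no such order. Of the 7 germ cell markers listed, 6 were lower in FGO than in NGO, Dazl among them. Nanos3 was higher, at only 0.0115 in FGO.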
